A study of Homo sapiens with 6 samples.

Results

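The genes of DNA replication licensing and of the replication fork were followed in MCF10DCIS.com (hereafter MCF10DCIS) cells, a human breast cancer line, after silencing of WDR5. The members were a named list of 50 genes, read as rows of the deposited count table of 26334 genes, and all 50 passed the filter on low counts. The table held 6 poly-A RNA-seq libraries, 3 from control cells (shLuc, carrying a hairpin against luciferase) and 3 from WDR5-silenced cells (shWDR5). Both groups carried the same pRSI vector, with a U6 promoter for the hairpin and TagRFP and puromycin resistance behind UbiC, and both were selected with 3 µg/ml puromycin. The study worked with pooled WDR5 hairpins in this line and the labels do not separate them, so the effects of single hairpins cannot be told apart, and all libraries come from 1 cell line. The labels do not say whether the libraries of a group came from separate cultures, so the p-values measure the spread between these libraries. The question of the comparison was which genes change in level when WDR5, a core subunit of the complexes that methylate histone H3 at lysine 4, is lowered.

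Replication starts at origins that are licensed in G1. The origin recognition complex (ORC) binds the origin, CDC6 and CDT1 join it, and the ring of MCM2 to MCM7 is loaded around the DNA, a step that geminin (GMNN) blocks outside G1. In S phase the kinase CDC7 with its partner DBF4, and factors such as MCM10, turn the ring into the active helicase by adding CDC45 and the GINS complex. Polymerase alpha with its primase then lays down primers, replication factor C (RFC) loads the sliding clamp PCNA, polymerases delta and epsilon copy the strands, replication protein A (RPA) covers single-stranded DNA, and FEN1, DNA2, RNase H2 and ligase 1 join the Okazaki fragments. Many of these genes are known targets of the E2F factors and are most highly expressed in dividing cells.

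The libraries held 38218108 to 57640167 counts. The first principal component of the genes that passed the filter on low counts (84.4% of the variance) separated the groups. WDR5 was at 52.6, 48.5 and 51.4 CPM (counts brought to a common library size by TMM scaling) in the shLuc libraries and at 23.4, 24.4 and 20.8 CPM in the shWDR5 libraries, 44.9% of control (log2 fold change of -1.15 ± 0.074 (SE), adjusted p = 8.67e-07), so the labels matched the targeted gene. All 8 epithelial markers examined (such as EPCAM, KRT5 and KRT8) were detected in all 6 libraries, with a summed level of 9195.4 to 10014.0 unscaled CPM in shLuc and 11536.1 to 12639.8 in shWDR5. Of 8 markers of immune, endothelial and stromal cells, CD3E was at 0 in all 6 libraries, 4 of the 8, CD3E included, stayed under 10 counts in each library, and the summed level was 30.2 to 31.8 CPM in shLuc and 19.5 to 21.9 in shWDR5. Those low markers were lower in shWDR5, as were most members, and their part in the results was not tested.

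WDR5 silencing was accompanied by lower RNA of most of the replication genes. Of the 50 members, 45 were called lower in shWDR5 (edgeR quasi-likelihood test, Benjamini-Hochberg adjusted p under 0.05 over 16117 genes tested), against 29.9% of all genes tested. No member was called higher in this main edgeR fit, against 26.6% of all genes tested, and 1 member (ORC5) was higher at an unadjusted p under 0.05. ORC5 was called higher by DESeq2 and by edgeR under some other settings, given below. The median log2 fold change of the members was -0.61, whereas the median of all genes tested was -0.01. In 45 members every shWDR5 library lay below every shLuc library, which was so for 32.4% of the genes tested. That count holds RPA1, which was not called, and leaves out RFC3, which was. With a further limit of an absolute log2 fold change of at least 0.6 and a mean above 0.5 RPKM (CPM per kilobase of exon), 26 members were called lower, against 10.1% of all genes tested.

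Together the members took 0.306 to 0.311% of all counts in the shLuc libraries and 0.196 to 0.207% in the shWDR5 libraries, and these ranges did not overlap. Their summed CPM fell from 3027 ± 21.4 in shLuc to 2053 ± 52.2 in shWDR5 (mean ± SD, n = 3), 67.8% of control. Single members ranged from 42.4% of their control level (MCM5) to 117.8% (ORC5), and 5 were below 50%. The size of the change did not follow abundance: across the 50 members the correlation of the log2 fold change with the log2 RPKM in shLuc was -0.02 (Pearson) and -0.01 (Spearman), a description over genes measured in the same libraries. In bulk RNA, fewer cells in S phase and less RNA of these genes per cell cannot be told apart. All 20 genes of a list of mitotic genes were called lower in the same libraries, against 29.9% of all genes tested. Their median log2 fold change was -0.84. This list, like the members and their role groups, was chosen with earlier results of these data known.

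**Figure D1:**
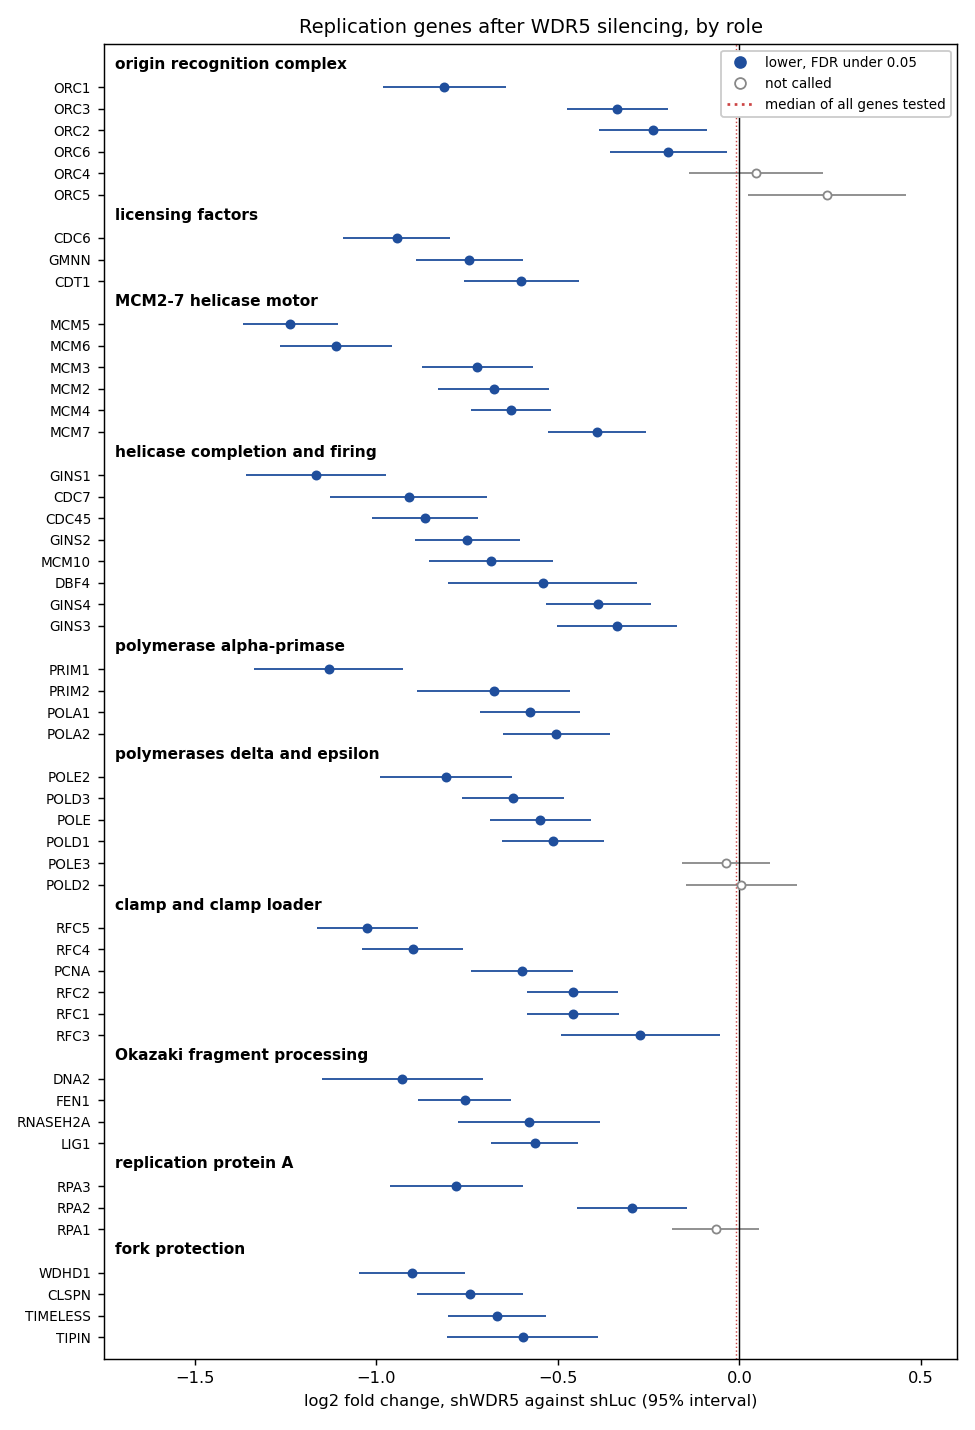
Log2 fold change of each of the 50 replication genes (x axis, shWDR5 against shLuc, with its 95% interval), in 10 role groups on the y axis. Filled points mark the 45 genes called lower, and open points the 5 not called (ORC4, ORC5, POLD2, POLE3 and RPA1), which lie near or above 0.

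The origin recognition complex had the smallest summed change of the 10 role groups, at 87.8% of its control RPKM. Of its 6 genes, 4 were called lower and 2 were not called, with a median log2 fold change of -0.22. For this and the other role groups, 29.9% of all genes tested, called lower, is the share to set beside the counts. For groups without overlap, the share of all genes tested with every shWDR5 library below every shLuc library was 32.4%. ORC1 (chr1:52838501-52870143, hg19), a subunit whose level is known to vary through the cell cycle, was at 21.6, 20.9 and 22.5 CPM in shLuc and at 11.9, 13.4 and 11.7 CPM in shWDR5 (log2 fold change of -0.81 ± 0.077 (SE), adjusted p = 1.04e-05). No shWDR5 library reached the lowest control for ORC1. ORC3 fell more mildly, from 28.7, 29.1 and 30.4 CPM to 23.1, 22.8 and 24.1 CPM (log2 fold change of -0.34 ± 0.062 (SE), adjusted p = 0.000986), again without overlap. ORC2 stood at 84.8% of control (log2 fold change of -0.24 ± 0.067 (SE), adjusted p = 0.0112), but was not called without shLuc replicate 3 (log2 fold change of -0.21, adjusted p = 0.0569).

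ORC6, the most abundant ORC gene per length at 14.1 ± 0.798 RPKM in shLuc (mean ± SD, n = 3), was at 23.2, 22.7 and 25.3 CPM in shLuc and at 20.7, 21.8 and 19.5 CPM in shWDR5 (log2 fold change of -0.20 ± 0.072 (SE), adjusted p = 0.04). Its groups did not overlap but lay close together, and the call was lost under DESeq2 (adjusted p = 0.084), under both other scalings (adjusted p = 0.0581 and 0.0985) and without shLuc replicate 1 or 3 or shWDR5 replicate 1 or 3 (log2 fold changes of -0.15 to -0.20). ORC4 was not called, with 51.9, 62.2 and 62.4 CPM in shLuc and 55.8, 63.2 and 62.9 CPM in shWDR5, and the 95% interval of its log2 fold change ran from -0.14 to 0.23. ORC5 stood on the other side of 0, at 14.6, 17.6 and 19.0 CPM in shLuc and 18.7, 21.2 and 20.4 CPM in shWDR5, where only shLuc replicate 3 reached into the range of the silenced libraries. It was not called (log2 fold change of 0.24 ± 0.10, adjusted p = 0.0577, unadjusted p = 0.0334), but it was called higher under DESeq2 (adjusted p = 0.0308), under both other scalings and without shLuc replicate 3 or shWDR5 replicate 1 (log2 fold change of 0.32 and 0.29). Per length, ORC1 was at 1.05, 0.846 and 0.843 times the level of ORC5 in the shLuc libraries and at 0.451, 0.451 and 0.407 times in the shWDR5 libraries. As ORC1 and ORC5 were taken as the ends of the order, that ratio is given without a test.

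All 3 licensing factors fell, the loaders and the inhibitor alike. CDC6 (chr17:38444146-38459413, hg19), the ATPase that loads the MCM ring together with ORC, dropped from 76.3, 74.3 and 81.6 CPM in shLuc to 40.3, 42.6 and 37.7 CPM in shWDR5 (log2 fold change of -0.94 ± 0.066 (SE), adjusted p = 1.51e-06). CDT1, which brings the ring to the origin, was at 34.4, 35.0 and 30.5 CPM and 21.7, 22.6 and 21.5 CPM (log2 fold change of -0.60 ± 0.071 (SE), adjusted p = 4.86e-05). GMNN, the inhibitor of CDT1, was at 38.4, 39.3 and 41.6 CPM and 23.3, 25.1 and 22.8 CPM (log2 fold change of -0.74 ± 0.066 (SE), adjusted p = 7.04e-06). None of the 3 genes had overlapping groups, and their summed level went from 67.1 ± 1.46 to 38.9 ± 1.89 RPKM (mean ± SD, n = 3). GMNN was the most abundant of them per length, at 29.3 ± 1.21 RPKM in shLuc and 17.5 ± 0.894 RPKM in shWDR5.

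The ring of the helicase held the largest change of the whole list. All 6 MCM genes were called lower (29.9% of all genes tested were), and their summed level went from 265 ± 10.1 to 161 ± 7.60 RPKM (mean ± SD, n = 3). MCM5 (chr22:35796116-35820495, hg19) was at 103, 105 and 98.0 CPM in shLuc and at 44.4, 44.3 and 41.2 CPM in shWDR5, 42.4% of control (log2 fold change of -1.24 ± 0.059 (SE), adjusted p = 1.80e-07). MCM6 (chr2:136597196-136634047) fell from 110.1, 103 and 112 CPM to 50.2, 53.9 and 46.1 CPM (log2 fold change of -1.11 ± 0.069 (SE), adjusted p = 7.71e-07). In both genes the highest silenced library lay far under the lowest control.

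MCM2, MCM3 and MCM4 formed a middle group, at 62.6%, 60.6% and 64.6% of control. MCM4 had the smallest SE of the ring, with 191, 191 and 193 CPM in the controls and 122, 128 and 122 CPM after silencing (log2 fold change of -0.63 ± 0.050 (SE), adjusted p = 3.33e-06). MCM7 (chr7:99690351-99699563), the most abundant MCM gene per length at 59.2 ± 3.66 RPKM in shLuc, fell least, from 231, 214 and 204 CPM to 171, 165 and 158 CPM (log2 fold change of -0.39 ± 0.061 (SE), adjusted p = 0.000303). Its groups still did not overlap. The 6 subunits sit in the ring in equal number. The level of MCM5 per length was 0.643, 0.705 and 0.689 times that of MCM7 in the shLuc libraries and 0.372, 0.386 and 0.374 times in the shWDR5 libraries, a description of a pair taken as the ends of the order, with no test. Of the exon length of MCM7, 9.0% overlaps AP4M1 on the other strand, and the strand setting of the counting is not given in the sources used here.

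The 8 genes that complete the helicase and fire the origin were all called lower, with a median log2 fold change of -0.72. GINS1 (chr20:25388323-25429191, hg19), a subunit of the 4-part GINS complex, showed the second largest fall among the members, from 26.4, 31.9 and 28.2 CPM in shLuc to 12.0, 13.7 and 12.7 CPM in shWDR5 (log2 fold change of -1.17 ± 0.087 (SE), adjusted p = 2.20e-06). GINS2, the most abundant of these genes per length at 31.2 ± 1.18 RPKM in shLuc, was at 38.1, 35.4 and 37.0 CPM and 22.8, 22.1 and 20.9 CPM (log2 fold change of -0.75 ± 0.065 (SE), adjusted p = 5.78e-06). The other two GINS genes changed less: GINS3 stood at 79.2% of control (adjusted p = 0.00289) and GINS4 at 76.4% (adjusted p = 0.000512). As a description of the genes that fell most and least in this group, with no test, the GINS1 level per length was 1.17, 1.58 and 1.24 times that of GINS3 in shLuc and 0.673, 0.795 and 0.756 times in shWDR5.

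CDC45, which joins GINS and the MCM ring in the active helicase, fell from 43.7, 42.1 and 41.3 CPM to 23.9, 24.1 and 21.7 CPM (log2 fold change of -0.87 ± 0.066 (SE), adjusted p = 2.45e-06). MCM10, which helps to activate it, was at 62.2% of control (log2 fold change of -0.68 ± 0.077 (SE), adjusted p = 3.52e-05). The kinase CDC7 was at 16.5, 19.7 and 19.4 CPM in shLuc and 8.92, 9.75 and 10.9 CPM in shWDR5 (log2 fold change of -0.91 ± 0.10 (SE), adjusted p = 2.39e-05), so each silenced library was far below each control. Its activating subunit DBF4 was more variable, at 27.9, 36.1 and 35.7 CPM and 19.4, 24.3 and 24.7 CPM (log2 fold change of -0.54 ± 0.12 (SE), adjusted p = 0.00262). For DBF4 the control with the lowest value, replicate 1, was close to the highest silenced library.

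**Figure D2:**
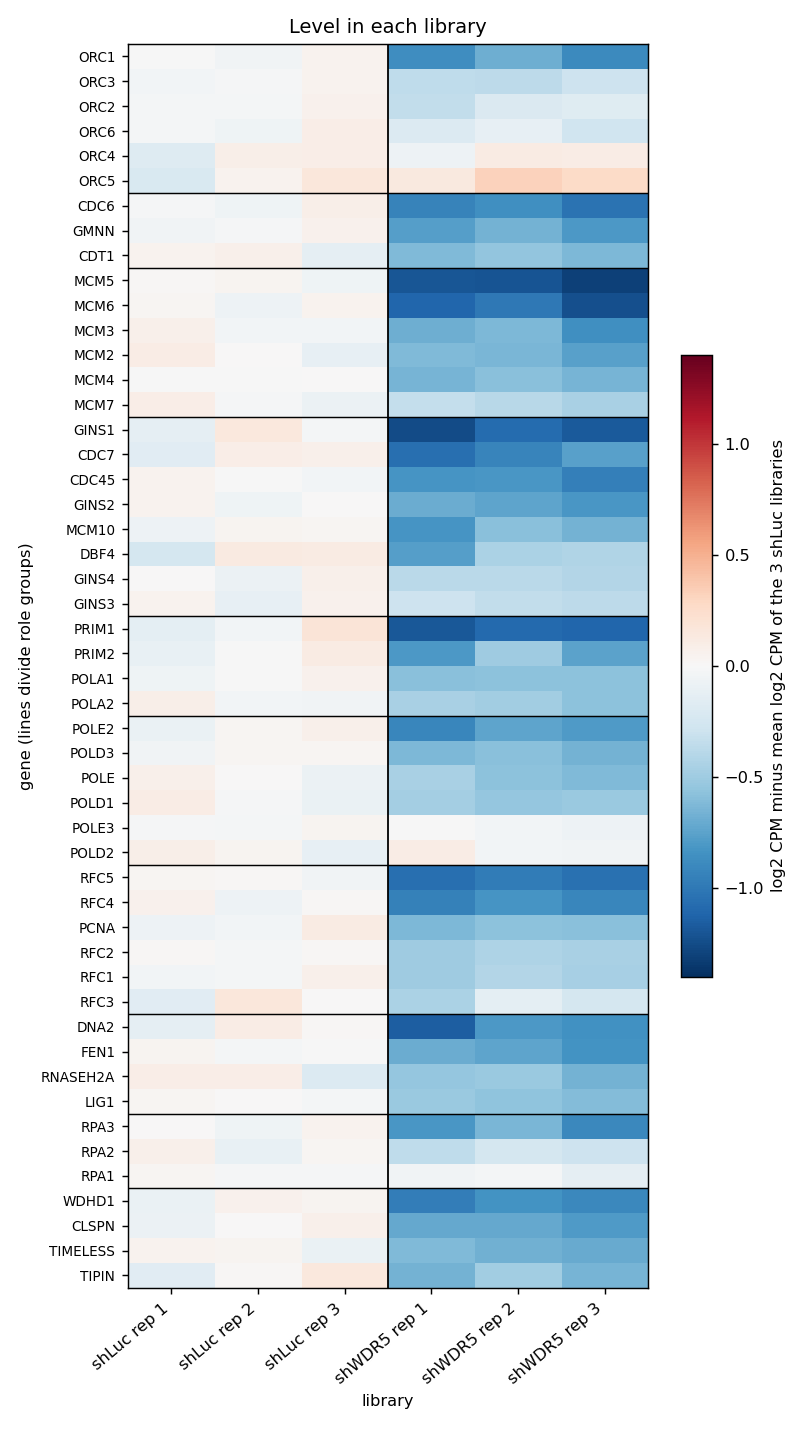
Level of the 50 genes in each of the 6 libraries, as log2 CPM minus the mean log2 CPM of the 3 shLuc libraries (colour scale, blue lower and red higher), with genes as rows in their role groups and libraries as columns. The 3 shWDR5 columns are blue for most genes, deepest for MCM5, MCM6, GINS1 and PRIM1, while ORC4, POLD2, POLE3 and RPA1 stay pale and ORC5 is red.

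All 4 subunits of polymerase alpha-primase were called lower, and primase changed most. PRIM1 (chr12:57125364-57146146, hg19), the catalytic subunit of primase, was at 16.8, 18.0 and 21.0 CPM in shLuc and at 8.14, 8.73 and 8.60 CPM in shWDR5, 45.6% of control (log2 fold change of -1.13 ± 0.092 (SE), adjusted p = 4.03e-06). PRIM2, the large primase subunit, went from 16.3, 17.3 and 18.8 CPM to 9.99, 12.3 and 10.4 CPM (log2 fold change of -0.68 ± 0.10 (SE), adjusted p = 0.000158). The polymerase subunits had smaller fold changes. POLA1, the catalytic subunit, was at 31.4, 32.7 and 34.0 CPM and 21.8, 22.0 and 21.9 CPM (log2 fold change of -0.58 ± 0.062 (SE), adjusted p = 2.47e-05), and the silenced libraries of POLA1 were almost identical. POLA2, the accessory subunit, was at 70.5% of control (log2 fold change of -0.50 ± 0.066 (SE), adjusted p = 9.78e-05). PRIM1 was thereby the most abundant of the 4 per length in shLuc (12.7 ± 1.48 RPKM) but not in shWDR5, where POLA2 was higher (7.20 ± 0.286 against 5.81 ± 0.212 RPKM, mean ± SD, n = 3).

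In polymerases delta and epsilon the catalytic subunits fell, while the accessory subunits POLD2 and POLE3 were not called. POLD1, the catalytic subunit of delta, was at 77.7, 71.5 and 68.0 CPM in shLuc and 52.0, 49.8 and 50.4 CPM in shWDR5 (log2 fold change of -0.51 ± 0.063 (SE), adjusted p = 6.41e-05). POLE, the catalytic subunit of epsilon, was at 148, 141 and 133 CPM and 102, 94.8 and 91.8 CPM (log2 fold change of -0.55 ± 0.063 (SE), adjusted p = 3.96e-05). The largest falls were those of accessory subunits: POLE2 (chr14:50110270-50155098, hg19) went from 12.6, 13.7 and 14.1 CPM to 7.14, 8.08 and 7.79 CPM (log2 fold change of -0.81 ± 0.082 (SE), adjusted p = 1.70e-05). POLD3 went from 29.3, 30.9 and 31.0 CPM to 19.7, 20.3 and 19.2 CPM (log2 fold change of -0.62 ± 0.063 (SE), adjusted p = 1.69e-05).

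POLD2, the subunit of delta next to POLD1 in the complex and the most abundant of the 6 per length (48.0 ± 3.34 RPKM in shLuc), was at 117, 113 and 102 CPM in shLuc and 119, 108 and 107 CPM in shWDR5. The groups overlapped, the change was 0.01 ± 0.068 (log2, SE; adjusted p = 0.954), and its 95% interval ran from -0.15 to 0.16. POLE3, a small histone-fold subunit of epsilon that is also part of a chromatin remodelling complex, was at 63.1, 62.7 and 65.8 CPM and 63.8, 62.1 and 60.8 CPM, with an interval from -0.16 to 0.08 (adjusted p = 0.584). These intervals leave out a fall as large as that of POLD1 or POLE. The summed level of the group was at 86.0% of its control RPKM, compared with 60.7% for the MCM ring, and POLD2 and POLE3 gave the largest parts of that sum.

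The sliding clamp and all 5 clamp loader genes were called lower. PCNA (chr20:5095599-5107268, hg19), the clamp and the most abundant member of the whole list per length, was at 120.5, 123 and 138 CPM in shLuc and 82.1, 85.2 and 84.7 CPM in shWDR5, or 88.2 ± 6.47 and 58.2 ± 1.18 RPKM (log2 fold change of -0.60 ± 0.063 (SE), adjusted p = 2.19e-05). Of its exon length 26.6% overlaps the antisense gene PCNA-AS1, and 3 pseudogenes named after PCNA are annotated in the genome. Some of its reads may therefore not be assigned with certainty. RFC5 fell from 35.4, 35.3 and 33.8 CPM to 16.7, 17.7 and 16.9 CPM (log2 fold change of -1.02 ± 0.063 (SE), adjusted p = 6.87e-07). RFC4 fell from 62.0, 56.7 and 60.2 CPM to 30.8, 33.5 and 31.5 CPM (log2 fold change of -0.90 ± 0.063 (SE), adjusted p = 1.51e-06).

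RFC1, the large subunit, and RFC2 stood at 72.8% and 72.7% of control (adjusted p = 6.72e-05 and 6.20e-05). RFC3 was the exception, at 22.6, 28.2 and 25.3 CPM in shLuc and 18.7, 22.9 and 21.3 CPM in shWDR5, so that shWDR5 replicate 2 lay above shLuc replicate 1 (log2 fold change of -0.27 ± 0.10 (SE), adjusted p = 0.0362). The call of RFC3 was lost without shLuc replicate 2 or 3 or shWDR5 replicate 1 or 3, with log2 fold changes of -0.20, -0.27, -0.20 and -0.28. The loader subunits bind each other in equal number, and the RFC5 level per length was 1.81, 1.45 and 1.54 times that of RFC3 in shLuc and 1.04, 0.895 and 0.919 times in shWDR5, a pair chosen for its values and not tested. RFC3, RFC5, DBF4, FEN1 and POLD2 each have 1 pseudogene named after them in the genome annotation, with which they may share reads.

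The 4 genes of Okazaki fragment processing were all called lower, with log2 fold changes from -0.93 to -0.56. DNA2 (chr10:70173821-70231878, hg19), a nuclease and helicase, was at 23.0, 26.9 and 25.3 CPM in shLuc and 11.2, 14.3 and 13.9 CPM in shWDR5 (log2 fold change of -0.93 ± 0.10 (SE), adjusted p = 2.55e-05). FEN1, the flap endonuclease and the most abundant of the 4 per length, was at 90.0, 86.1 and 87.5 CPM and 54.1, 52.6 and 49.2 CPM (log2 fold change of -0.76 ± 0.058 (SE), adjusted p = 2.60e-06). LIG1, the ligase that seals the nicks, was at 67.6% of control (log2 fold change of -0.56 ± 0.053 (SE), adjusted p = 1.07e-05), and RNASEH2A, the catalytic subunit of RNase H2, at 66.9% (log2 fold change of -0.58 ± 0.088 (SE), adjusted p = 0.000269). In all 4 the groups were separate, and their sum went from 87.4 ± 3.11 to 54.8 ± 2.04 RPKM (mean ± SD, n = 3).

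Of the 3 subunits of replication protein A, which act as 1 trimer, 2 were called lower and 1 was not called. RPA3, the smallest subunit, was at 20.5, 19.5 and 21.2 CPM in shLuc and 11.6, 13.1 and 10.9 CPM in shWDR5 (log2 fold change of -0.78 ± 0.082 (SE), adjusted p = 2.26e-05). RPA2, the middle subunit, was at 41.9, 37.0 and 40.6 CPM and 31.1, 33.6 and 32.6 CPM (log2 fold change of -0.30 ± 0.068 (SE), adjusted p = 0.0036). RPA1, the large subunit and the most abundant per length (22.7 ± 0.448 RPKM in shLuc), was at 101, 97.7 and 97.2 CPM and 95.4, 96.9 and 90.3 CPM and was not called (adjusted p = 0.329). Its silenced libraries all lay just below the controls, and the 95% interval of its log2 fold change ran from -0.18 to 0.05. The RPA3 level per length was 0.554, 0.545 and 0.594 times that of RPA1 in shLuc and 0.331, 0.369 and 0.329 times in shWDR5, again a pair taken for its values and given without a test. Of the exon length of RPA3, 11.7% overlaps UMAD1 on the other strand, and 3 pseudogenes named after RPA2 are annotated.

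The 4 fork protection genes fell together, and their sum went from 40.9 ± 1.50 to 24.9 ± 0.740 RPKM (mean ± SD, n = 3). WDHD1 (chr14:55405656-55493819, hg19), which ties polymerase alpha to the helicase, was at 58.8, 65.6 and 64.3 CPM in shLuc and 32.2, 35.2 and 33.6 CPM in shWDR5 (log2 fold change of -0.90 ± 0.066 (SE), adjusted p = 1.93e-06). CLSPN (claspin), the adaptor that passes the checkpoint signal to CHK1, was at 37.1, 39.4 and 41.2 CPM and 23.9, 23.9 and 22.6 CPM (log2 fold change of -0.74 ± 0.066 (SE), adjusted p = 6.83e-06). TIMELESS was the most abundant per length, at 14.4 ± 0.754 RPKM in shLuc and 9.04 ± 0.305 in shWDR5 (log2 fold change of -0.67 ± 0.061 (SE), adjusted p = 8.38e-06). Its partner TIPIN was at 13.0, 14.8 and 16.1 CPM and 9.24, 10.4 and 9.31 CPM (log2 fold change of -0.60 ± 0.093 (SE), adjusted p = 0.000322), and the partners thus stood at 63.0% and 65.9% of control.

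**Figure D3:**
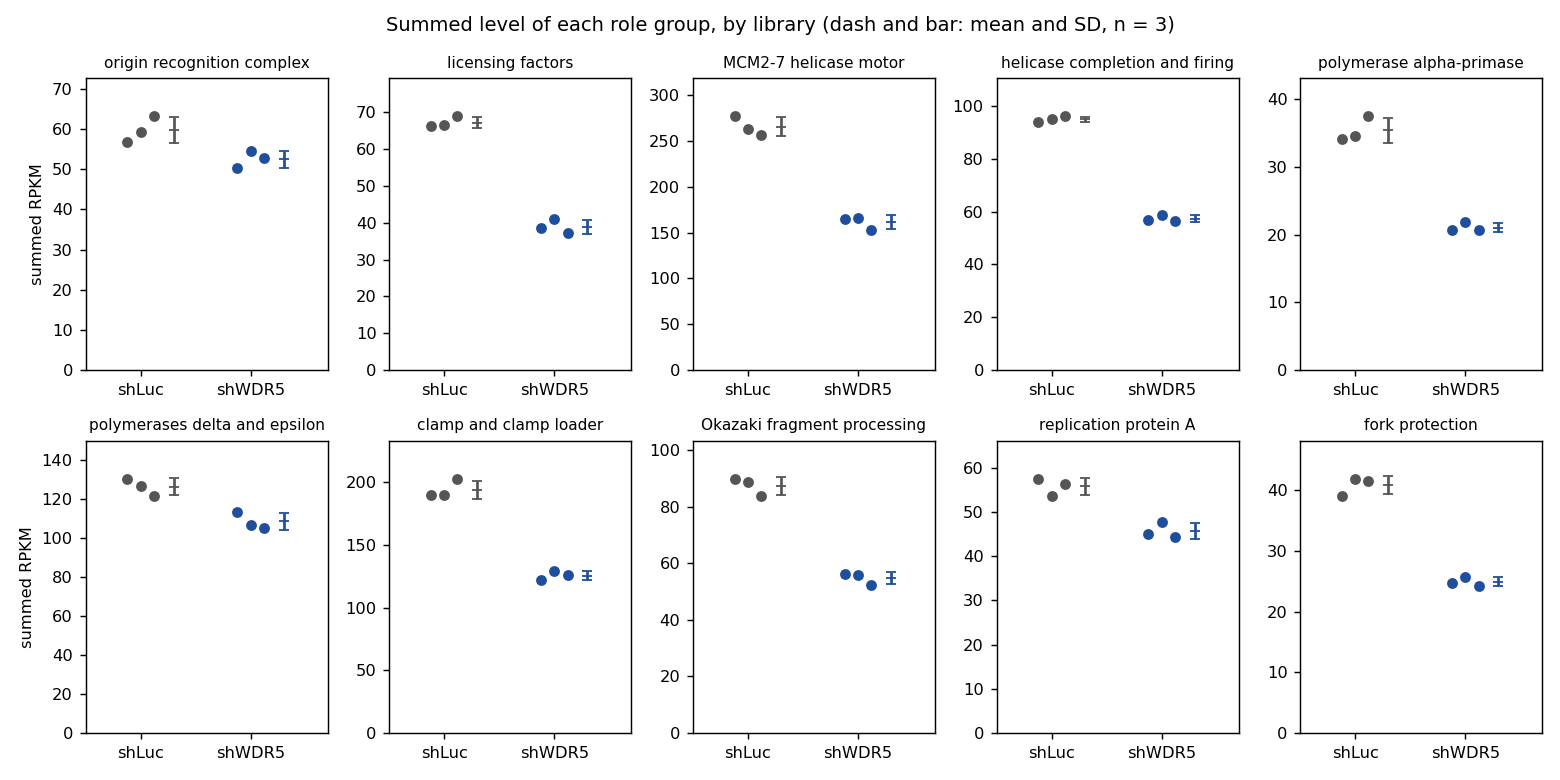
Summed RPKM of each of the 10 role groups (y axes start at 0) in the 3 shLuc and 3 shWDR5 libraries, 1 point a library, with the mean and SD beside them. In every panel the shWDR5 points lie below the shLuc points, from 57.9% of control for the licensing factors to 87.8% for the origin recognition complex.

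**Figure D4:**
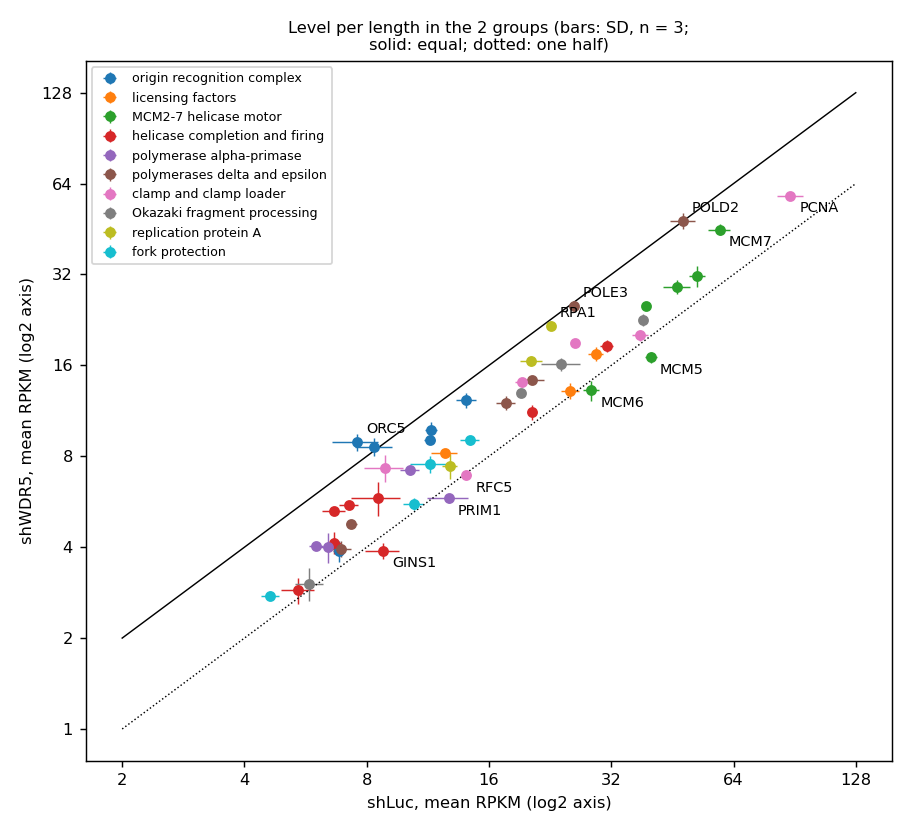
Mean RPKM of each member in shWDR5 (y axis) against shLuc (x axis), both on log2 axes, with SD bars (n = 3) and colours for the role groups. POLD2, POLE3 and RPA1 sit on the line of equal level and ORC5 just above it, whereas MCM5, MCM6, GINS1, PRIM1 and RFC5 lie under the dotted line that marks 50% of control.

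As the members moved together, the sequence before their start sites was read for words of the E2F type (TTTCCCGC, TTTGGCGC and TTTCGCGC, either strand), the letters that E2F factors are known to bind. RefSeq windows of 250 bases before to 50 bases after a start (GRCh38.p14) were held for 43 of the 50 members. Of these 43 genes 21 had a word in at least 1 window (48.8%), compared with 5.17% of the tested genes with a window and 3.30% of all genes with one. TTTCCCGC was found for 11 members, TTTGGCGC for 8 and TTTCGCGC for 5. The median GC content of the windows was 64.0% for the members and 64.0% for the genes tested. The word TTTGAA of the cell cycle homology element, tied to mitotic genes, was found for 2 members, DBF4 and POLE3 (4.65%, against 14.2% of the genes tested). A match is a description of the letters and not of a bound site. Many of these genes are known E2F targets, and the share depends on the list alone. It is therefore not a result of the silencing.

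The 21 members with an E2F word were all called lower, with a median log2 fold change of -0.60. Of the 22 members whose windows had no word, 17 were called lower, with a median of -0.56, and the 5 others were ORC4, ORC5, POLD2, POLE3 and RPA1. Of all genes tested, 29.9% were called lower. The log2 fold changes of members with a word (-1.17 to -0.27) and without one (-1.13 to 0.24) overlapped. Whether these sets differ was not tested. As examples picked for their values, PRIM1 and RFC5 had no word and were among the largest falls, while ORC3 and RFC3 had one and fell mildly. Only the exact words named above were searched, so windows without one were not read for other E2F-type sequences. For MCM4, MCM5, GINS4, POLD3, DNA2, RPA2 and RPA3 no window was read.

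To show what such a word looks like beside the start, the stretch around the word nearest the start is given for the called member with the largest fall in each role group that has one. Each runs 5′ to 3′ on the strand of the gene, at most 50 bases on either side and at most 30 bases past the start, with positions in GRCh38.p14 (the gene positions above are in hg19) and the words in capitals (GCGGGAAA and GCGCCAAA are words read on the other strand).
ORC3 (chr6:87590073-87590164, + strand): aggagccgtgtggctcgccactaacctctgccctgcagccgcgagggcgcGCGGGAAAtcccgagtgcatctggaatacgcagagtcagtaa
CDC6 (chr17:40287836-40287908, + strand): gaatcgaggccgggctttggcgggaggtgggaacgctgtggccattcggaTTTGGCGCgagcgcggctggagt
MCM6 (chr2:135876472-135876579, - strand): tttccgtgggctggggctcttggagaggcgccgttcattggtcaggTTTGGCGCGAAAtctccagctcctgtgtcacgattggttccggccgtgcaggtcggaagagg
GINS1 (chr20:25407628-25407702, + strand): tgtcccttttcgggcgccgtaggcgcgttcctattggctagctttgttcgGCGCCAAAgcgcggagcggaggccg
POLA1 (chrX:24693731-24693838, + strand): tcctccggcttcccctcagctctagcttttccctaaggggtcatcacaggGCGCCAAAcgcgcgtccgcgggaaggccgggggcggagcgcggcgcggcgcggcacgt
POLE2 (chr14:49688185-49688269, - strand): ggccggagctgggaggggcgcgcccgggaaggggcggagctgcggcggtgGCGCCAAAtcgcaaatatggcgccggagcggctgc
PCNA (chr20:5126624-5126731, - strand): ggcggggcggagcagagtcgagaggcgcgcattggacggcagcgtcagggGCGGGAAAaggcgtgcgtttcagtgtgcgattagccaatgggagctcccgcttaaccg
LIG1 (chr19:48170401-48170508, - strand): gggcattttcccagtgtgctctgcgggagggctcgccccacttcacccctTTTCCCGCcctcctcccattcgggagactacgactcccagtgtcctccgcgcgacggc
CLSPN (chr1:35769949-35770033, - strand): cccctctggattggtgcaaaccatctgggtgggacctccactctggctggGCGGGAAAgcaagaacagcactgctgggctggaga

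In CDC6 and GINS1 the word begins 7 and 5 bases after the start, and in POLE2 and CLSPN it spans the start, beginning 5 bases before it. In MCM6 a TTTGGCGC overlaps a TTTCGCGC of the other strand, which gives the capitals of that line their length of 12. The fold changes of these genes ranged from -1.17 (GINS1) to -0.34 (ORC3) on the log2 scale.

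Other genes of replication, listed beside the members, moved the same way in part. Of 28 such genes 22 were called lower, 1 was called higher and 5 were not called, with a median log2 fold change of -0.43 (29.9% of all genes tested were lower). The smallest adjusted p was that of TOP2A, the topoisomerase that untangles sister DNA, from 351, 369.7 and 377 CPM in shLuc to 190.1, 202 and 202 CPM in shWDR5 (log2 fold change of -0.89 ± 0.053 (SE), adjusted p = 6.18e-07). MCM8, a paralogue of the ring genes that works in repair, and CHAF1B, a subunit of the histone chaperone CAF-1, were at 53.6% and 59.0% of control (adjusted p = 3.45e-06 and 1.05e-05). POLD4, the smallest subunit of polymerase delta, was the gene that rose, from 40.8, 38.6 and 34.4 CPM to 69.0, 61.4 and 61.4 CPM (log2 fold change of 0.75 ± 0.078 (SE), adjusted p = 1.96e-05). The 4 subunits of polymerase delta therefore showed 3 patterns, with POLD1 and POLD3 lower, POLD2 not called and POLD4 higher. The genes not called, named after their values were seen, were POLE4, LRWD1, CHTF8, TOP1 and RPAIN.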

How the data were processed

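Poly-A RNA of MCF10DCIS cells was sequenced after TruSeq library preparation. Per the labels, the authors aligned reads with TopHat2 2.1.0 to hg19/GRCh37 and counted them per gene with featureCounts (version and strand setting not given in the sources used here), and the deposited table holds raw counts per gene and library. A second deposited table holds the authors' own edgeR fold changes and p-values and was not used. All 6 libraries entered 1 fit without covariates: filterByExpr (16117 of 26334 genes kept), TMM, and edgeR 4.0.16 glmQLFit and glmQLFTest, with Benjamini-Hochberg adjustment over all genes tested. SE is the log2 fold change divided by the root of F. CPM and RPKM use TMM library sizes and the exon length of the table; at 38218108 to 57640167 counts a library, the lowest member count was 331. Alternatives were DESeq2 1.42.0, DESeq2 size factors, upper-quartile factors, no filter, stricter limits (absolute log2 fold change of 0.6, RPKM above 0.5, as in the study's methods), a replicate block and leaving out each library. The code was tested on simulated data. Members, role groups and lists (other replication, mitotic, G1/S, epithelial and other-cell genes) were chosen with earlier results of these data known. For each role group, per-library values were given for the 2 largest called changes, the most abundant gene per length and each gene not called, with values of other members added; of each other list, counts and up to 4 genes with the smallest adjusted p.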

Additional observations from a re-analysis of the deposited data

How the results depend on the processing

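The 50 members gave 550 values under the alternatives other than the stricter limits, of which 528 kept their direction and their side of the threshold. The members called lower numbered 44 with DESeq2 size factors, upper-quartile factors or DESeq2, 45 without a filter or with the replicate block, and 42 to 45 without single libraries. Members called higher numbered 1 (ORC5) with DESeq2 size factors, upper-quartile factors, DESeq2 and the replicate block, and 0 to 1 without single libraries. Lower ORC genes numbered 2 without shLuc replicate 3 and 2 to 4 without single libraries. Stricter limits gave 26 lower members and, of all genes, 1623 lower and 1143 higher (main values 4821 and 4291). By role group they gave 1 for ORC, 3 for licensing factors, 5 for the MCM ring, and 5 for helicase completion and firing. They gave 2 each for polymerase alpha-primase, polymerases delta and epsilon, clamp and clamp loader and Okazaki fragment processing. Replication protein A had 1 and fork protection 3. The sign turned for ORC4 without shLuc replicate 1 (log2 fold change of -0.023; -0.023 to 0.10 without single libraries) and for POLD2 without a filter (-0.0045), without shLuc replicate 3 (-0.053) and without shWDR5 replicate 1 (-0.045; -0.053 to 0.061 without single libraries), none of them called. The replicate numbers were not taken as pairs in the main fit, since they may only be names. The deviations of same-numbered libraries correlated at 0.56, 0.07 and 0.20. Those of differently numbered libraries of the 2 groups correlated at -0.49 to 0.36, and not every library correlated best with its own number. These values do not settle whether the numbers mark pairs. With the block 5511 genes were lower and 4901 higher, ORC5 had an adjusted p of 0.00538, and no other member changed its call. The causes of these changes were not tested.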

Other observations

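Of 23 regulators of the G1/S step 9 were called lower, 8 higher and 6 were not called, with a median log2 fold change of 0.01, against 29.9% lower and 26.6% higher of all genes tested, shares near those of the list. CDC25A, the phosphatase that activates CDK2, was at 43.6% of control (log2 fold change of -1.20 ± 0.075 (SE), adjusted p = 8.05e-07), and CDK2 itself at 59.1% (log2 fold change of -0.76 ± 0.057 (SE), adjusted p = 2.20e-06). CDKN1A, the CDK inhibitor p21, rose from 447, 448 and 445 CPM in shLuc to 788, 719.7 and 720.4 CPM in shWDR5 (log2 fold change of 0.73 ± 0.053 (SE), adjusted p = 1.88e-06). E2F8 fell from 5.71, 6.37 and 6.72 CPM to 1.38, 2.06 and 1.90 CPM (log2 fold change of -1.80 ± 0.14 (SE), adjusted p = 2.83e-06), while E2F7, its partner in repressing E2F targets and a gene named here after its values were seen, rose to 152.6% of control (log2 fold change of 0.61 ± 0.068 (SE), adjusted p = 3.30e-05). The rest of the E2F family went both ways. E2F1 and E2F2 were called lower, at 72.0% and 44.8% of control. E2F3, E2F4, E2F5 and E2F6 were called higher, at 113.6%, 135.0%, 140.4% and 123.4%. CCNE1 and CDK6 were also called higher, and CCND1 was not called.

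All 20 mitotic genes were called lower (29.9% of all genes tested were), with a median log2 fold change of -0.84, compared with -0.61 for the replication genes; that difference was not tested. CENPF, a kinetochore protein, was at 46.5% of control (log2 fold change of -1.10 ± 0.051 (SE), adjusted p = 1.59e-07). BUB1B, TPX2 and CCNB2 stood at 50.2%, 53.6% and 51.5% of control (adjusted p = 3.17e-07, 5.41e-07 and 7.08e-07). Among the epithelial markers 4 of 8 were called higher (KRT5, KRT14, TP63 and ITGB4), CDH1 and EPCAM were called lower, and KRT8 and KRT18 were not called, while of all genes tested 26.6% were higher and 29.9% lower. With 8 markers, nothing is read from these counts. Of the 8 markers of other cell types 4 passed the filter, PECAM1 and COL1A1 were called lower, and CDH5 and PDGFRB were not called.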
